A study of Mus musculus with 30 samples.

Results

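The most deeply covered CpGs of mouse sperm reduced representation bisulfite sequencing (RRBS) are described here: 534 CpGs that held 500 or more reads, both strands summed, in each of 30 sperm libraries. They were chosen by coverage alone, on chromosomes 1 to 19, and an 8 kb interval of chromosome 17 around the ribosomal RNA pseudogene Rn18s-rs5 (chr17:39846354-39848202, RefSeq on GRCm38) was left out. They form 310 loci when CpGs 100 bp or less apart are joined, and they belong to the 416876 CpGs that every mouse covered by at least 10 reads, called the covered CpGs below, of 2558413 CpGs read in any mouse on the autosomes and X. Since coverage chose these CpGs, it is given as a description with no test. The 10 CpGs just inside the rule had a lowest coverage of 500 to 507 reads over the mice, and the 10 just outside had 494 to 499.

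The sperm came from the cauda epididymis of 30 singly housed male C57BL/6J mice (strain given in the labels as C57BL/6), with 1 library per mouse. The labels pose the question whether cadmium in drinking water alters sperm DNA methylation. The 15 cadmium mice drank reverse-osmosis (RO) water with 0.9 ppm cadmium prepared from cadmium chloride, at an average dose of 0.68 mg per kg of body weight, and the 15 vehicle mice drank RO water. All mice were 7 weeks old initially, ate the same diet of defined fat content, and were sampled 9 weeks post treatment. The sperm were washed and pelleted, and no step that lyses other cells is given in the labels.

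RRBS cuts DNA with an enzyme whose recognition site holds a CpG and sequences the short fragments after bisulfite conversion, so reads gather at CpGs in CpG-rich fragments. A sequence that stands in many copies in the animal but in few in the reference assembly gathers the reads of all copies at those few places. Satellite DNA, ribosomal DNA and transposon families are the usual repeats of this kind, and mouse chromosome 2 is known for an interval where satellite reads pile up. No repeat annotation was used here, so no locus was assigned to a repeat family by a comparison of sequences.

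Of the 534 deep CpGs, 6 CpGs in 4 loci lay in promoter windows whose sequence was given, from RefSeq on GRCm38.p6. These 4 stretches are shown because they are the deep loci for which a sequence was given. They read 5′ to 3′ on the plus strand, and capitals mark the deep CpGs.
Gm31869, chr1:161767702-161767752: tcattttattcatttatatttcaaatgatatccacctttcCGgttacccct
Gm13822, chr5:114922449-114922511: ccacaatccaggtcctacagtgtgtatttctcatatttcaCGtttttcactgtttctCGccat
LOC115490388, chr6:3182897-3183023: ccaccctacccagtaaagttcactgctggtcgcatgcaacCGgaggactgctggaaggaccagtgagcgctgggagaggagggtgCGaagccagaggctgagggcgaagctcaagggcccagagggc
Med13, chr11:86357760-86357841: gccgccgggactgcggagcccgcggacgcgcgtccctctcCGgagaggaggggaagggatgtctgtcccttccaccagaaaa

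The CpG at Gm31869 was 88.5% ± 4.93 methylated in cadmium mice and 88.4% ± 4.80 in vehicle mice (SD, n = 15 each). The CpG at Med13, a subunit gene of the Mediator complex, was 0.70% ± 0.745 and 1.02% ± 0.520 methylated (SD, n = 15 each). The first was thus mostly methylated and the second nearly unmethylated in both groups.
At Gm13822 the first capital CpG was 36.5% ± 5.42 methylated in cadmium mice and 33.5% ± 4.83 in vehicle mice (SD, n = 15 each), while the second, on the same fragment, had a mean of 0.462% ± 0.703 and 0.290% ± 0.781 (SD, n = 15 each). At LOC115490388 the first CpG was 19.5% ± 8.17 and 20.4% ± 12.5 methylated (SD, n = 15 each), and single mice ranged from 2.84% to 43.2%. The 2 deep CpGs of Gm13822 thus differed from each other in both groups, and at LOC115490388 the mice differed widely.
The enzyme site CCGG, read the same on both strands, held 3 of the 6 deep CpGs, and 23.1% of the covered CpGs in promoter windows lay in one. CCGG occurs in 53.5% of the 31365 promoter windows. Words of 20 bases from the LOC115490388 stretch occurred in 2 other promoter windows, and those of the other stretches in none. Of 29061 separate promoter windows, 31.7% shared a word of 20 bases with another. Copies outside promoter windows were not searched.

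Libraries differed in how much of their coverage fell on these CpGs, and cadmium mice 4 and 2 stood apart. Coverage summed over deposited cytosines was 53591172 to 94090975 per library. The 534 deep CpGs took 5.09% to 22.1% of the coverage of the covered CpGs in cadmium mice (median 6.33%) and 5.05% to 8.73% in vehicle mice (median 5.49%). Cadmium mouse 4 held 22.1% and cadmium mouse 2 held 11.4%, above every vehicle mouse. The read-weighted differences at deep CpGs, over all covered CpGs and without the deep CpGs are given with and without both. The percentages carried by deep CpGs, the series of left-out loci and the values by context are given only with both included.

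The deep CpGs lay on all 19 autosomes, from 9 on chromosome 15 to 53 on chromosome 11. Single CpGs made up 202 of the 310 loci, and the longest locus spanned 151 bp. At 292 loci over 95% of the coverage was on 1 strand. The same share for the other covered CpGs is not given here, so this is not shown to be particular to deep loci. Gene bodies held 45.7% of the deep CpGs, intergenic sequence 40.8% and windows of 1000 bp around gene ends 13.5%, against 33.2%, 16.3% and 50.5% of the other covered CpGs. CpGs at positions under 4000000 bp, next to the unsequenced centromeric end, were 2.81% of the deep CpGs and 0.721% of the others. Of the 310 loci, 144 lay inside a RefSeq gene and 11 inside or within 1000 bp of a pseudogene.

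Coverage was concentrated in few loci. A deep locus had 9.82 to 15893 times the coverage of the median CpG of the same mouse, with a median of 15.9 times, and 3 loci had a median over 10000 reads while 296 had one under 3000.
The most covered CpG, chr2:98666503-98666504, was intergenic and 36095 bp from Gm33780. Its coverage was 729629 to 6413221 reads, with a median of 1192530. It alone took 2.13% to 17.8% of coverage in cadmium mice (median 3.30%) and 2.17% to 5.29% in vehicle mice (median 2.65%).
The groups overlapped in that share, and 13 of 15 cadmium mice lay above the vehicle median. Cadmium mouse 4 held 17.8% and cadmium mouse 2 held 8.01%, while the next highest was vehicle mouse 1 with 5.29%.
In cadmium mouse 4, 3 of the 310 loci took over 2 times the share of the median mouse, all in a short interval of chromosome 2: the most covered CpG (5.98 times), the CpG at 98662794 (8.46 times) and the 2 CpGs at 98666262 (8.83 times). The same 3 were the only loci over 2 times in cadmium mouse 2, at 2.69, 3.33 and 3.20 times. In cadmium mouse 3 the loci at 98662794 and 98666262 were also over 2 times, the latter at 2.26, and vehicle mouse 1 had 1.98 times at 98662794. In vehicle mouse 15, 12 loci lay under 0.5 times the median share.

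**Figure D1:**
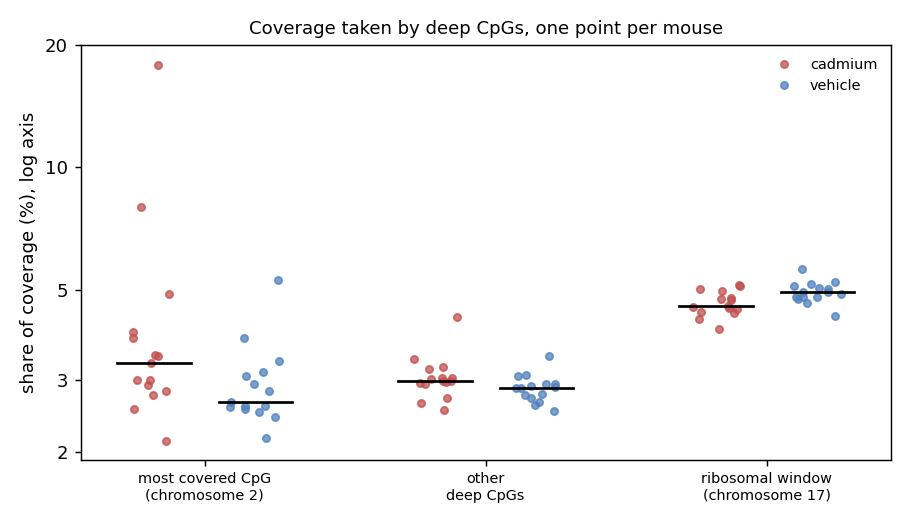
Share of coverage, in percent on a log axis, at the most covered CpG, at the other 533 deep CpGs and in the ribosomal window of chromosome 17, with 1 point per mouse and a bar at the group median. Cadmium mice 4 and 2 lie far above the rest at the most covered CpG, at 17.8% and 8.01%.

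After the chromosome 2 loci the deepest was a CpG at chr15:75085812-75085813, 10792 bp from Gm5960, with a median of 68275 reads and methylation of 97.2% ± 0.298 in cadmium and 96.8% ± 0.475 in vehicle mice (SD, n = 15 each). Next came 2 stretches inside Gm36876 on chromosome 11, 16 CpGs at 109011835 to 109011985 with a median of 9185 reads and 3 CpGs at 109011698 to 109011716 with 7968. Then followed 3 CpGs at chr14:19418796 (median 4490 reads), 8 CpGs at chr3:5860668 (3916), 6 CpGs inside Cdk8 (3828), the gene of a Mediator kinase, and 5 inside Jarid2 (3668), the gene of a Polycomb complex cofactor. The most covered locus had 130 times the median coverage of the first Gm36876 stretch.

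Methylation of the deep CpGs was split between low and high values. Of the 534, 38.6% were under 20% methylated, 19.1% between 20 and 80% and 42.3% over 80%, against 65.2%, 12.9% and 21.9% of the other CpGs. By locus, 81 loci were under 20%, of which 29 lay at gene ends, 60 were between, of which 39 were intergenic, and 169 were over 80%.
The 3 most methylated loci were single CpGs in Dlgap1, a postsynaptic scaffold gene, Wrn, a DNA helicase gene, and Ubr1, a ubiquitin ligase gene, at 98.8%, 98.7% and 98.6%. The least methylated was a CpG at chr6:60567571, 19200 bp from Gm35386, at 0.00733%, with all 15 vehicle mice at 0%. Next were 3 CpGs in Meis1, a homeobox gene, at 0.507%, and 4 in Ccni, a cyclin gene, at 0.470%.
Within the 108 loci of more than 1 CpG the median range between CpGs was 3.18 points, and 69 ranged by less than 5. In 3 loci the CpGs differed by more than 20 points: Gm35363 (11.2% and 65.8%), Gm13822 (0.376% and 35.0%) and Prepl (44.0% and 70.2%).

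**Figure D2:**
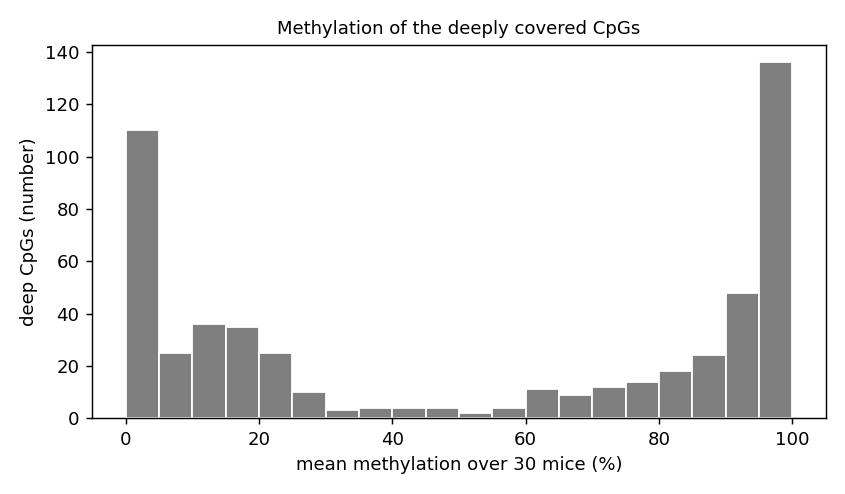
Number of deep CpGs by mean methylation over the 30 mice, in bins of 5 points. Most CpGs lie at the ends, 206 under 20% and 226 over 80%.

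Reads at these CpGs are so many that counting error is small: the median SD between mice of a group was 3.03 points against 0.628 points from counting alone, and 532 of 534 exceeded 2 times the counting SD. Among the other CpGs the values were 3.87 and 1.38, with 71.4% over 2 times. Deep CpGs of 20 to 80% varied most among the deep CpGs, with a median SD of 9.81 points, against 22.8 points for other CpGs of that class. Under 20% the medians were 2.56 points for deep and 1.94 for other CpGs, and over 80% they were 2.36 and 8.18.

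No deep CpG passed the test between cadmium and vehicle mice. In a logistic model with Pearson dispersion and Benjamini-Hochberg adjustment over all 1126751 CpGs tested, 0 of 534 deep CpGs were called, where 0.000533% of all CpGs were. Unadjusted, 19 had p under 0.05 (10 higher and 9 lower in cadmium mice), which is 3.56% against 10.1% of all CpGs, and the smallest adjusted p was 0.299. limma also called 0, with 15 of the 534 unadjusted against 18189 of all 1126751 CpGs. By limma that share was larger among deep CpGs than among all CpGs, the other way round from the logistic model. The difference was under 5 points at 532 of the 534, with a median of -0.146 points against 0 over all CpGs. Of the 94 regions of 3 or more CpGs that hold a deep CpG, 0 were called, where 0.000973% of all regions were, and 4 had an unadjusted p under 0.05, which is 4.26% against 6.03% of all regions. limma called 0 of them, with 1 unadjusted against 3068 of all 102788 regions.
The smallest p was at a CpG in Arhgap15: methylation was 91.8% to 97.4% in cadmium mice (median 94.5%) and 94.3% to 98.4% in vehicle mice (median 96.2%). The groups overlapped, with 7 of 15 cadmium mice below the lowest vehicle mouse, and the difference was -1.60 points (logistic model, adjusted p = 0.299). Among CpGs lower in cadmium mice, the next smallest p were in Zfp827 (-1.03 points, adjusted p = 0.347) and Gm30211 (-3.80 points, adjusted p = 0.386) by the same model. Among CpGs higher in cadmium mice, the smallest p were in Abca8a, a lipid transporter gene (1.37 points, adjusted p = 0.345), Prepl, a peptidase-like gene (4.12 points, adjusted p = 0.380), and Sec14l4 (1.08 points, adjusted p = 0.380).

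The mean over the 534 CpGs, each counted once, was 51.8% ± 0.694 in cadmium and 52.1% ± 0.872 in vehicle mice (SD, n = 15 each). The difference of -0.292 points had a 95% interval of -0.882 to 0.299 (two-sided permutation test, p = 0.317). The direction turned under other rules for deep CpGs, to 0.146 points with a minimum of 250 reads and 0.122 points with a median of 500. The mean over the other CpGs differed by 0.113 points (permutation p = 0.460).

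Weighted by reads, the methylated share at deep CpGs was higher in cadmium mice, but the call was not stable. It was lost without the most covered CpG, without the 5 deep loci of the chromosome 2 interval and without cadmium mice 2 and 4. Leaving out cadmium mouse 4 alone or vehicle mouse 15 alone also removed the call. The methylated share also moves with how each mouse's coverage was spread over the deep CpGs, and coverage chose them. Its p-values are thus not tests of methylation alone. The methylated share of reads at deep CpGs was 62.2% to 78.9% in cadmium mice (median 68.8%) and 57.6% to 70.7% in vehicle mice (median 66.0%). Cadmium mice were 2.95 points higher (95% interval 0.291 to 5.60, permutation p = 0.0265), and 12 of 15 cadmium mice lay above the vehicle median.
The highest value, 78.9%, was that of cadmium mouse 4, and the lowest, 57.6%, that of vehicle mouse 15. Without cadmium mice 2 and 4 the difference was 1.83 points (permutation p = 0.101), without cadmium mouse 4 it was 2.23 points (permutation p = 0.0537) and without vehicle mouse 15 it was 2.35 points (permutation p = 0.0539). Without the most covered CpG it was 2.46 points (permutation p = 0.0640), and without the 5 deep loci of chr2:98662410-98666683 it was 0.989 points (permutation p = 0.288). With the ribosomal interval counted as deep it was 4.47 points (permutation p = 0.0371).
Methylation of the most covered CpG itself was 78.0% to 89.6% in cadmium mice (median 83.2%) and 77.1% to 90.6% in vehicle mice (median 81.5%), a difference of 1.13 points (interval -1.60 to 3.85, permutation p = 0.401). With each CpG's weight fixed at its mean share over the 30 mice, the deep CpGs differed by 0.442 points (interval -1.34 to 2.23, permutation p = 0.613).

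The deep CpGs also carried part of the read-weighted difference over all covered CpGs. That share of methylated reads was 34.5% ± 3.55 in cadmium and 32.5% ± 2.63 in vehicle mice (SD, n = 15 each), a difference of 2.01 points (interval -0.337 to 4.35, permutation p = 0.0886). With coverage capped at 100 reads per CpG it was 0.921 points (permutation p = 0.155). Leaving out the 534 deep CpGs gave 1.15 points (interval -0.623 to 2.93, permutation p = 0.199), so 0.854 points, or 42.6% of the difference, went with them. The most covered CpG alone carried 0.744 points, or 37.1%.
Without cadmium mice 2 and 4 the difference over all covered CpGs was 1.06 points (permutation p = 0.297), and without the deep CpGs as well it was 0.880 points (permutation p = 0.351). The unweighted mean of the deep CpGs then differed by -0.229 points (permutation p = 0.461).
Leaving out 2 loci gave 1.17 points and leaving out all 310 gave 1.15, so nearly all that the deep CpGs carried came from 2 CpGs on chromosome 2. The CpG at 98662794 carried 0.0682 points. The loci that carried most in the other direction were Gm36876 (-0.00770 points), Cdk8 (-0.00334) and Zc3h7a (-0.00255).
With fixed weights over all CpGs the difference was 0.101 points (interval -0.311 to 0.513, permutation p = 0.633). With methylation fixed at each CpG's mean and each mouse's own weights, it was 1.90 points, given with no test because coverage chose the deep CpGs. The difference was thus smaller with fixed weights than with fixed methylation, while the full difference of 2.01 points had an interval that included 0. Without cadmium mice 2 and 4, fixed weights gave 0.108 points (permutation p = 0.634). The value with fixed methylation was not computed without those mice.
By context, intergenic CpGs differed by 2.44 points (permutation p = 0.0318, adjusted over 3 contexts 0.0955), and by 1.34 points without the deep CpGs (permutation p = 0.143, adjusted 0.293). Gene ends differed by 0.225 points and gene bodies by 1.18.

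**Figure D3:**
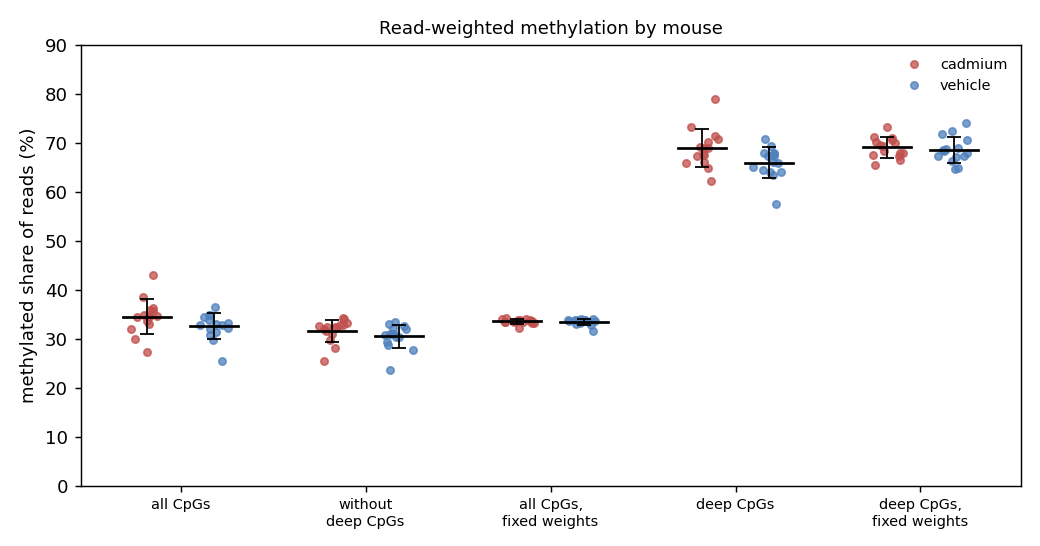
Methylated share of reads, in percent, for 5 sets of CpGs, with 1 point per mouse, the group mean as a bar and the SD as error bars. With fixed weights the groups lie together, at a difference of 0.101 points over all CpGs and 0.442 points over deep CpGs.

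**Figure D4:**
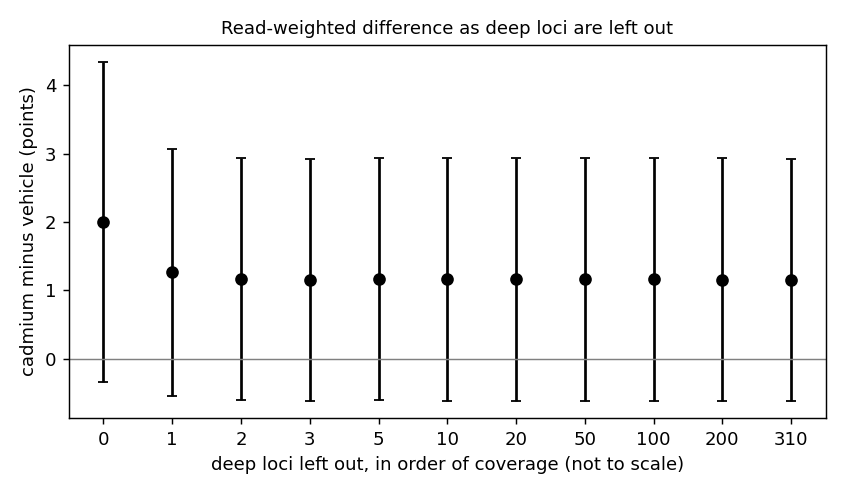
Cadmium minus vehicle difference in the methylated share of reads over all CpGs, in points with 95% intervals, as deep loci are left out in order of coverage. The value falls from 2.01 to 1.26 with the first locus and to 1.17 with the second, and every interval includes 0.

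Some of the 310 deep loci fell into sets whose methylation moved together across the 30 mice, while most were in none of the sets. How many of the other covered CpGs moved in the same way is not given here. The sets were formed after the values were seen, all loci were read in the same 30 libraries, and no test was made of the sets. At 10 loci (71 CpGs) methylation had r over 0.6 with the left-out ribosomal interval of chromosome 17. They were the 2 Gm36876 stretches, 2 in Cdk8, and 1 each in Taco1, in the overlap of Cmss1 and Filip1l, in Jarid2 and in Zc3h7a, and near Cd209a and Gm18604. Their r was 0.740 to 0.901, their methylation 6.48% to 22.2%, and all 10 were lower in cadmium mice, by 0.859 to 2.37 points. The interval itself was 15.8% ± 3.40 methylated in cadmium and 16.8% ± 4.29 in vehicle mice (SD, n = 15 each, permutation p = 0.485). The 10 loci were picked by r with this interval, so their shared direction goes in part with the choice. Among all deep loci under 20% methylated, 34 were higher and 47 lower in cadmium mice. The counts were 29 and 31 between 20 and 80%, and 76 and 93 over 80%.
The largest of them, the 16 CpGs in Gm36876, ranged from 9.03% to 25.9% in cadmium mice (median 18%) and from 11.9% to 28.4% in vehicle mice (median 19.9%). The groups overlapped over nearly their whole range.

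A second set of 57 loci (104 CpGs) had r over 0.6 with the most covered CpG, and an opposite set of 48 loci (65 CpGs) had r below -0.6 with it. No locus was in both the first set and the second. The second set held the other deep loci of chr2:98662410-98666683, 3 CpGs at chr9:3004784 and the chr14:19418796 locus. It also held loci in or near Il1rl1, an interleukin receptor gene, Gli2, a hedgehog pathway transcription factor gene, and Rarb, a retinoic acid receptor gene. Other loci of chromosome 2, such as those in Fnbp1 and near Gm25514, were in the opposite set. Methylation in the second set ran from 2.44% to 94.4%, and 35 loci were higher and 22 lower in cadmium mice. These loci were picked by r with a CpG that was 1.13 points higher in cadmium mice. Their directions, and those of the opposite set, thus go in part with the choice.
The CpG in Il1rl1 ranged from 20.7% to 68.3% in cadmium mice (median 37.9%) and from 13.6% to 76.2% in vehicle mice (median 31.8%), with r = 0.942. The spread within each group was far wider than the gap between the medians.
The opposite set was methylated at 45.2% to 96.7%, and 13 loci were higher and 35 lower in cadmium mice. It included CpGs in Il17rd, a growth factor signalling regulator gene, Tnfrsf21, a death receptor gene, and Nr5a2, a nuclear receptor gene. The CpG in Il17rd ranged from 31.3% to 85.6% in cadmium mice (median 59.4%) and from 24.8% to 89.3% in vehicle mice (median 78.4%), with r = -0.940. Its means were closer than its medians, at 62.3% ± 15.2 in cadmium and 66.9% ± 23.3 in vehicle mice (SD, n = 15 each). The difference of the means was -4.59 points, and the groups overlapped over nearly their whole range.
The median SD over mice was 7.48 points in the second set and 5.44 in the opposite set.

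**Figure D5:**
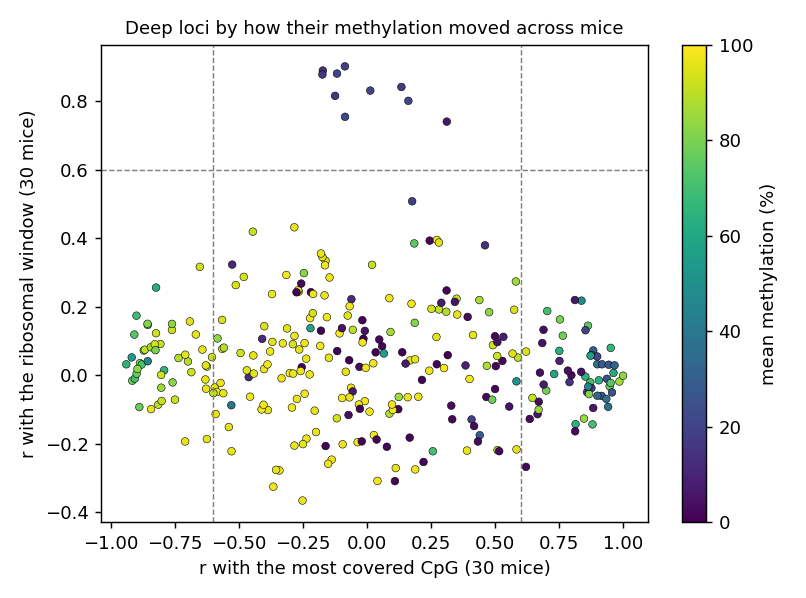
Correlation over 30 mice of each deep locus's methylation with that of the most covered CpG (x axis) and of the ribosomal window (y axis), coloured by mean methylation in percent. Dashed lines mark 0.6 and -0.6, and the 10 loci at the top, at 6.48% to 22.2% methylation, are separate from the sets at the left and right.

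Other measures of the libraries moved with the most covered CpG and with the loci of 20 to 80% methylation. Across 30 mice the methylation of the most covered CpG rose with the mitochondrial share of coverage, which ranged from 0.0127% to 0.119%: Pearson r was 0.914 and Spearman rho 0.909 (permutation p = 1e-05 each, the smallest the test can give; adjusted over 6 relations 3e-05). It was 0.899 within cadmium and 0.940 within vehicle mice, and 0.905 without the 2 mice farthest from the median. Its mean share was 0.0586% for cadmium and 0.0584% for vehicle libraries.
Gene ends that carry methylation from the mother, and are unmethylated in mature sperm, were read as a check of the cell type: Peg3, Nnat, Mest and Plagl1 together were at 23.0% (cadmium mean) and 18.5% (vehicle mean), with 6.62% to 52.2% in single mice. That level had r = 0.861 and rho = 0.883 with the most covered CpG (permutation p = 1e-05 each, adjusted 3e-05), 0.798 within cadmium and 0.885 within vehicle mice, and 0.807 without the 2 farthest mice. The H19 control region, methylated in sperm, was 86.4% ± 10.5 and 87.7% ± 13.4 (SD, n = 15 each) over 2 CpGs. The part of these measures in the sets was not tested, and none was compared with the 10 loci that follow the ribosomal interval.
The mean over the 60 loci of 20 to 80% had r = 0.702 and rho = 0.772 with the mitochondrial share (permutation p = 2e-05 each, adjusted 4e-05), 0.699 and 0.705 within the groups and 0.695 without the 2 farthest mice. The mean over all 534 CpGs had r = 0.268 and rho = 0.291 with it (permutation p = 0.151 and 0.118, adjusted the same), 0.513 and 0.134 within the groups and 0.296 without the 2 farthest mice. With the unmethylated control sequence that mean had r = 0.411 and rho = 0.474 (permutation p = 0.024 and 0.0089, adjusted 0.0288 and 0.0133), 0.530 and 0.322 within the groups and 0.510 without the 2 farthest mice. With the mean of the other CpGs it had r = 0.60 and rho = 0.366 (permutation p = 0.00047 and 0.0467, adjusted 0.000705 and 0.056), 0.485 and 0.780 within the groups, but 0.322 without cadmium mouse 9 and vehicle mouse 15, so that relation rests on those mice.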

How the data were processed

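RRBS was read in 30 sperm libraries, 15 per group. The deposited tables hold a read count and a methylated fraction for every cytosine on each strand, and the lowest deposited count was 1. Bismark 0.22.3, methylKit 1.12.0, Trim Galore 0.5.0 and bcl2fastq were used on GRCm38 (mm10), per the submitters' processing notes (the sources used here do not say which step each did). Methylated reads were the rounded product of fraction and count, and strands were summed. A CpG was tested where at least 10 mice per group had a minimum of 10 reads, with no upper coverage limit, by a logistic model with Pearson dispersion of at least 1, an F test and Benjamini-Hochberg adjustment, called at an adjusted p under 0.05. Regions joined at least 3 tested CpGs across gaps of up to 100 bp. Values per mouse were compared by two-sided permutation tests (100000 resamples), with 95% Welch intervals. Alternatives were limma 3.58.1, other read minimums, other rules for deep CpGs, capped coverage, separate strands, wider regions and gene ends, a replicate block and each mouse left out. Scripts used Python 3.11.15, numpy 2.4.6, scipy 1.17.1 and R 4.3.3, and the model was tested on simulated data. Reads are not separate molecules, so counting SDs cover counting error only. Genes are RefSeq genes on GRCm38.

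Named loci were the 10 deepest, the 3 moving the read-weighted difference most each way, the 3 most and 3 least methylated, and the 3 CpGs with the smallest p in each direction. Loci named among the sets that moved together were chosen after their values were seen. The members and lists were chosen with earlier results of these data known. Over the 102 deep CpGs of 20 to 80% methylation, 8 of 15 same-numbered pairs of mice had a correlation over 0.1. Their correlations ran from -0.734 to 0.967, with a mean of 0.205 against -0.0124 for other pairs. In 1 case the best match was the mouse of the same number. These values do not settle whether a shared replicate number links 2 mice. No 2 libraries of a group agreed within counting noise.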

Additional observations from a re-analysis of the deposited data

How the results depend on the processing

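The read-weighted difference at deep CpGs lost its call without the most covered CpG (2.46 points), without cadmium mice 2 and 4 (1.83) and without the chromosome 2 interval (0.989). The last 2 alternatives were chosen after seeing the data. The call at deep CpGs was also lost without cadmium mouse 4 alone (2.23 points) or vehicle mouse 15 alone (2.35 points). Leaving out each mouse in turn gave 2.23 to 3.42 points there, 1.40 to 2.52 over all CpGs (called without cadmium mouse 9, at 2.52, or 10, at 2.33), 0.668 to 1.59 without the deep CpGs (called without cadmium mouse 9, p = 0.0424 by permutation), -0.443 to -0.221 for the unweighted mean, and -0.0289 to 0.194 with fixed weights, the negative value without vehicle mouse 15. Capping coverage at 100 and 500 reads gave 0.921 and 1.22 points over all CpGs, and counting the chromosome 17 interval as deep gave 4.47 points at deep CpGs. The unweighted mean turned to 0.146 points with a minimum of 250 reads (1640 CpGs) and to 0.122 with a median of 500 (1500 CpGs). With no dispersion term 336 deep CpGs and 62 regions were called, as were 484969 of all CpGs; that alternative ignores the spread between mice. Every other alternative run called 0 deep CpGs and 0 of their regions, with separate strands run for CpGs only and the wider gap for regions only. With the planned upper coverage limit no deep CpG was left to test. With the replicate block the differences were 2.01, 2.95, 1.15, -0.292 and 0.101 points, the exact p at deep CpGs was 0.00604, limma called 0 deep CpGs and regions, and no call changed. At deep CpGs the median SD between mice was 3.03 points, against 0.628 points from counting alone. With 1 library per mouse, spread between mice and spread between libraries cannot be told apart.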
